A study of Mus musculus with 12 samples.

Results

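Imprinted growth genes were examined in mouse hearts at postnatal day 8. The set was a list of 36 genes chosen by name, found on the array through the platform annotation. Where several probes named a gene, its brightest on average across the 12 arrays stands for it. Of the 36 genes, 34 had a named probe, among 17742 genes named on the array, and Snrpn and Zrsr1 had none here. The samples labelled Salv CKO came from mutants of Salvador (Sav1), the scaffold protein of the Hippo kinases, and the samples labelled Control were wild-type. Each group held 2 biological samples with 3 technical arrays each, all from whole hearts of the C57bl/6 X 129 hybrid background at postnatal day 8. One label calls the tissue embryonic, against the stage and protocol entries. The labels do not state how and in which cells Salvador was mutated, or whether a sample was 1 heart or a pool.

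Imprinted genes are transcribed mainly from the copy inherited from a single parent, under the control of DNA methylation set in the germ line. Many paternally expressed members, such as Dlk1, Peg3, Mest and Plagl1, promote fetal growth. Several maternally expressed ones, such as H19, Grb10 and Phlda2, restrain it. A group of them is highly expressed in the embryo and is switched down together in many organs after birth, and Plagl1, a zinc finger transcription factor, is known as a regulator of others in this network. An array probe sums both parental copies, so parental origin was not measured.

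The deposited values were whole-number intensities for 26423 probes on a linear scale. Levels are given below as log2(intensity + 1) after quantile normalization, averaged over the 3 arrays of a sample, and a difference is the mean of the Salv CKO-labelled samples minus that of the samples labelled Control. On this scale the median of all probes was 6.12, and a member below it in all 4 samples is called dim. The heart muscle markers were high in all 4 samples, and the 6 measured ones averaged 14.93 and 14.95 in the Salv CKO-labelled samples, against 14.95 and 15.01 in the controls. Myh6, Myh7, Ryr2 and Myl2 had no named probe here. The brightest Sav1 probe did not follow the labels, and its place relative to the mutated part of the gene is not known. Salv CKO 1 had a level of 8.06 and Salv CKO 2 one of 8.52, against 8.75 for Control 1 and 8.08 for Control 2, so each sample is called by its label only and every direction below is that of the labels. The samples of a group are described as biological, but the labels do not say that they came from separate animals. The p-values of limma rest on the spread between samples, and how much of that spread is biological is not known. In addition, 2 samples against 2 cannot give an exact two-sided permutation p below 0.333. No probe of the array passed an adjusted p of 0.05 (limma, 0 of 26423, or 0%, smallest adjusted p = 0.998), and 1048 had an unadjusted p under 0.05, or 3.97%.

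The sequences shown here belong to Dlk1, Plagl1 and Mest, or to small RNAs hosted by H19 and Mest, the 4 members above the 95th percentile of probes of like brightness. H19 is processed to miR-675, and miR-335 lies in an intron of Mest. The arrays measured the host transcripts and not these mature miRNAs. The mature sequences, from RefSeq (GRCm38.p6), are given from 5′ to 3′ with the seed, bases 2 to 8, in capitals. The 4 seeds differ from one another.
mmu-miR-675-5p: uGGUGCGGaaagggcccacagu
mmu-miR-675-3p: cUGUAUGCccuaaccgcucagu
mmu-miR-335-5p: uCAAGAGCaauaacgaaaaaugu
mmu-miR-335-3p: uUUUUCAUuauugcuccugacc

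The RefSeq promoter table (GRCm38.p6) held 38 promoters of 27 measured members, and the 250 bases before the start site were used. CpG pairs, the sites at which imprints are methylated, numbered a median of 11 in the member promoters and of 6 over all 32851 promoters searched. The windows of Dlk1, Plagl1 and Mest are printed because these genes are known to act in one growth network. They are given 5′ to 3′ on the plus strand with CpG pairs in capitals. The Dlk1 window (chr12:109452573-109452822) held 8 CpG, the Plagl1 window (chr10:13090582-13090831) 19 and the Mest window (chr6:30737800-30738049) 14. Further Mest windows held 7 and 14 CpG, and the first with the highest count is printed.
Dlk1: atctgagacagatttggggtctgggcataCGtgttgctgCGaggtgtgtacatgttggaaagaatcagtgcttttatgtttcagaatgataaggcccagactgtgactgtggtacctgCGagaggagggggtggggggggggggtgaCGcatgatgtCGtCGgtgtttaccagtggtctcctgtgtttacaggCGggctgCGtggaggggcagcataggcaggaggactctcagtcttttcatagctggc
Plagl1: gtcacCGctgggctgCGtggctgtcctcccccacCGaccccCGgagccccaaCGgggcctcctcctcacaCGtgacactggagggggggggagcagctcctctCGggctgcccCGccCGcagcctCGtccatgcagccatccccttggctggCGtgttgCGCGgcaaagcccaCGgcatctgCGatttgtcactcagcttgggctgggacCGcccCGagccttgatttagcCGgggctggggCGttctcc
Mest: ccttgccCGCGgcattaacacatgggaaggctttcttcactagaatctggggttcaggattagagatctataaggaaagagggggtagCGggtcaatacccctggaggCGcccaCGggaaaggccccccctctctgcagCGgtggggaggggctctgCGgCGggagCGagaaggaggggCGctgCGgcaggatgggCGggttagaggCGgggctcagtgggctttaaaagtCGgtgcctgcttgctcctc

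The letters CATTCC, the core of the motif bound by the TEAD partners of Yap1, were searched on both strands of these windows. They were in 5 of the 38 member promoters, or 13.2%, and in 12.6% of all promoters searched. The matches were in Mkrn3, Peg3, Slc22a3, Usp29 and Zim1, and none was in the 3 windows printed. Peg3 and Usp29 are transcribed away from each other, and their windows share the same match, so the 5 windows held 4 separate matches. A match in these letters is a description of the sequence only.

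As a group, the imprinted genes were close to the array as a whole. None of the 34 passed over all probes in limma (smallest adjusted p = 0.998), and 2, Dlk1 and Phlda2, had an unadjusted p under 0.05 on the brightest probe. That is 5.88% of the members, against 3.97% of all probes. In 21 of 34 the difference was positive, against 48.6% of all probes. This count was 15 of 34 with arrays centred on their medians instead, a setting in which the median difference of the members was -0.07 rather than 0.10. The median difference of the brighter 50% of probes was -0.14 in that setting. It was -0.01 after quantile normalization and 0.05 without normalization between arrays. The groups did not overlap in 11 members, or 32.4%, against 30.6% of all probes. In 8 of these both Salv CKO-labelled samples were above both controls (background 14.8%), and in 3 both were below (background 15.8%). The 8 were H19, Kcnq1ot1, Phlda2, Dlk1, Rtl1, Sgce, Mest and Plagl1, and the 3 were Dio3, Dcn and Impact. In the deposited intensities averaged per sample, H19, Mest, Plagl1, Dio3, Dcn and Impact overlapped. The split of 8 above and 3 below was 5 and 4 with centred arrays, and 10 and 0 without normalization between arrays.

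**Figure D1:**
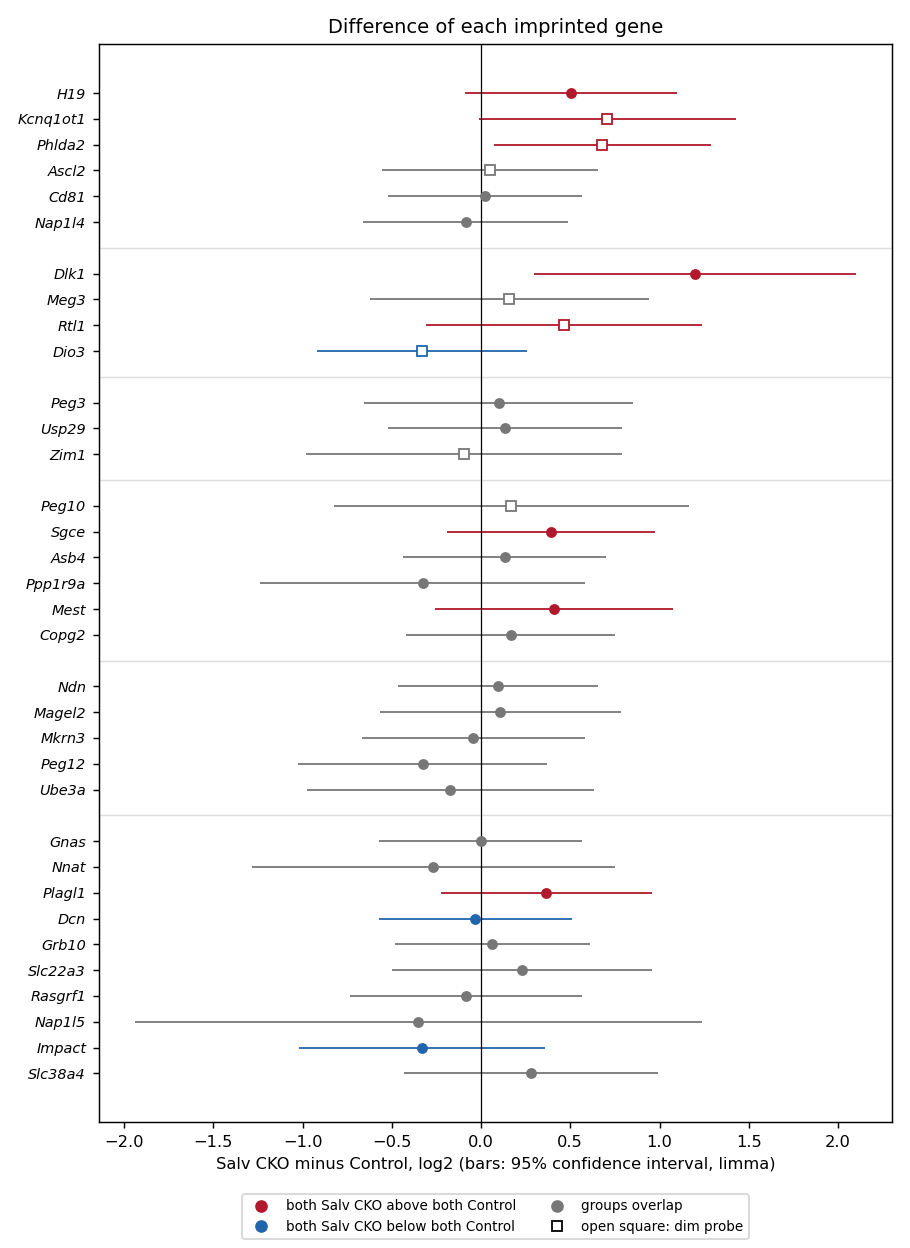
Difference of each of the 34 measured imprinted genes (x axis, log2, Salv CKO-labelled samples minus Control) with its 95% confidence interval from limma, in blocks of neighbouring or related loci; filled points are probes that are not dim and open squares dim ones. Each gene is given by its brightest probe, and on these the intervals of all genes but Dlk1 and Phlda2 include 0.

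Among the regulators and growth factors expressed from the paternal copy, Dlk1 had the largest difference of the 34. Dlk1 encodes a membrane protein of the Notch ligand family that is made in fetal tissues and in the precursors of fat and muscle. Salv CKO 1 had a level of 6.73 and Salv CKO 2 one of 6.87, against 5.19 for Control 1 and 6.01 for Control 2. Both Salv CKO-labelled samples lay above both controls, and each of their 6 arrays lay above each of the 6 control arrays. The difference was 1.20 ± 0.34 (SE, limma, 95% interval 0.29 to 2.10, unadjusted p = 0.0199, adjusted p = 0.998), a fold of 2.29. The probe lay above the median of all probes in the Salv CKO-labelled samples only, so it escapes the dim class through that group alone, with mean deposited intensities of 103 and 133 in the Salv CKO-labelled samples, against 34.3 and 60.7 in the controls. The arrays of Control 1 were at 20, 38 and 45, an SD of 0.79 on the log2 scale, against 0.09 in both Salv CKO-labelled samples. Without Control 1 the difference was 0.79, with the median of technical arrays 1.07 and with a pseudocount of 16 it was 0.97. The other Dlk1 probe was dim, with levels of 3.47 and 2.98 in the Salv CKO-labelled samples and 3.06 and 2.90 in the controls, and its groups overlapped.

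Mest, a hydrolase-like gene known from fetal mesoderm and growing fat, was measured by 2 bright probes. The brighter one stood at 12.07 and 11.96 in the Salv CKO-labelled samples, against 11.82 and 11.39 in the controls. The other stood at 12.27 and 12.12, against 10.61 and 11.53. The groups were apart on both probes, but the size and the order of the controls differed between them. The differences were 0.41 ± 0.25 and 1.13 ± 0.37 (SE, limma, unadjusted p = 0.170 and 0.0307, adjusted p = 0.998 for both). Control 2 was the lowest sample on the first probe and Control 1 on the second, and without Control 2 the first differed by 0.19. In the deposited intensities the first probe overlapped, at 3546 and 4668, against 3922 and 2421, and the second did not, at 4078 and 5215, against 1687 and 2738.

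Plagl1 stood at 13.22 and 13.45 in the Salv CKO-labelled samples, against 12.89 and 13.05 in the controls. The groups did not overlap, and the arrays of a sample spread by an SD of at most 0.07. Its difference of 0.37 ± 0.22 (SE, limma, adjusted p = 0.998) was 0.15 when arrays were centred on their medians. The deposited intensities, before normalization between arrays, averaged 7904 and 12993 in the Salv CKO-labelled samples and 8203 and 7820 in the controls, so there Salv CKO 1 lay between the controls.

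Peg3, a zinc finger gene tied to growth and cell survival, had levels of 10.53 and 10.02 in the Salv CKO-labelled samples, against 10.01 and 10.34 in the controls. Its groups overlapped, with the highest sample in one group and the next highest in the other. Rtl1, a gene derived from a retrotransposon and needed in the placenta and in fetal muscle, was dim and stood at 5.92 and 5.61, against 5.02 and 5.58. Its groups were apart by a small margin, since Salv CKO 2 and Control 2 were nearly level, and without Control 1 its difference of 0.46 was 0.19. RefSeq lists a separate antisense RNA at that locus, 6430411K18Rik, which is also dim here and stood at 5.63 and 5.64, against 5.39 and 5.32. Peg10, another gene derived from a retrotransposon, had mean deposited intensities of at most 3.67 and is close to background.

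**Figure D2:**
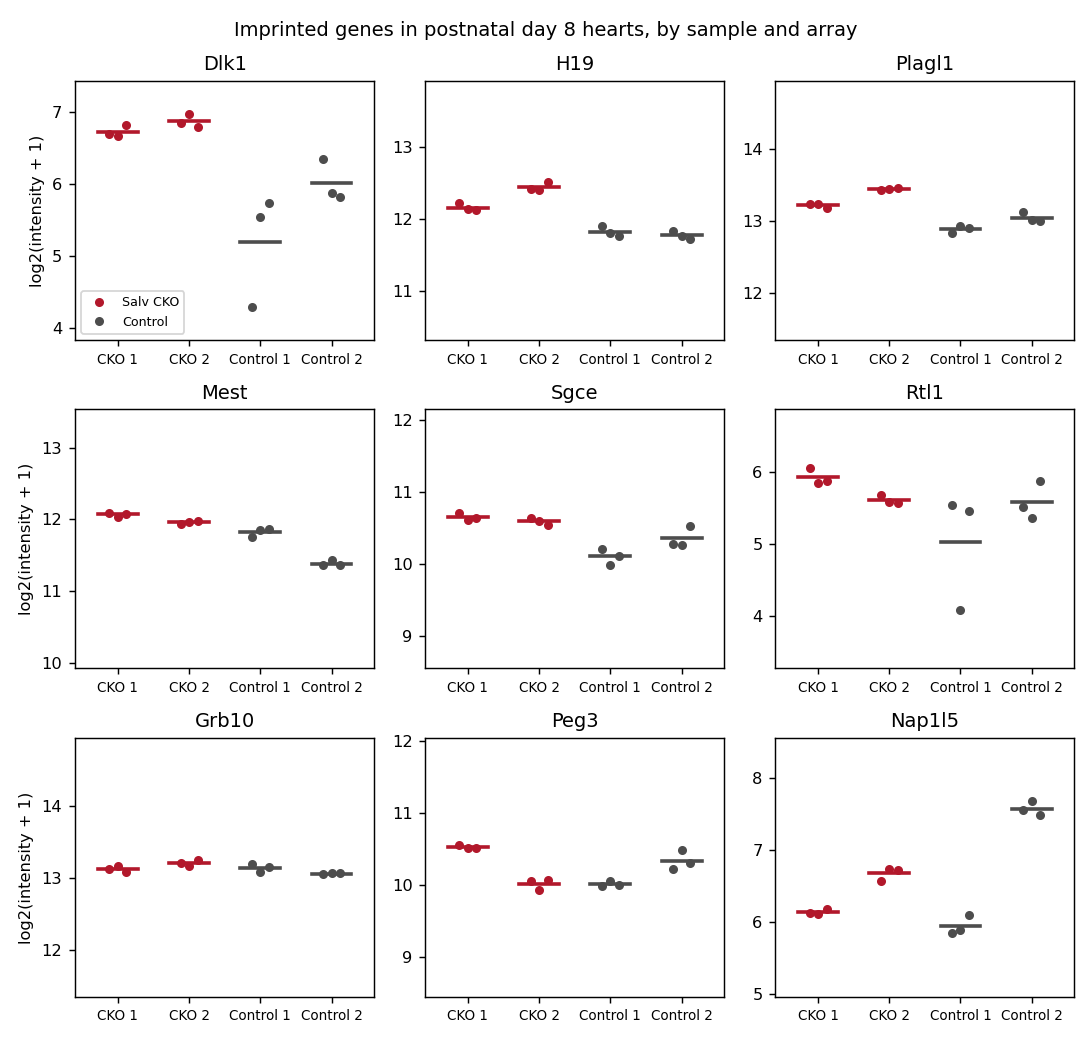
Level of 9 imprinted genes, log2(intensity + 1) after quantile normalization (y axis, spans of equal height), in Salv CKO 1, Salv CKO 2, Control 1 and Control 2; points are the 3 technical arrays and bars their mean. Dlk1, H19, Plagl1, Mest and Sgce are higher in both Salv CKO-labelled samples, Grb10 is level and Nap1l5 has both extremes in the controls.

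Of the maternally expressed growth restrainers, H19 was bright with its groups apart. H19 is a long non-coding RNA that shares its control region with Igf2. Salv CKO 1 had a level of 12.16 and Salv CKO 2 one of 12.44, against 11.82 for Control 1 and 11.77 for Control 2. Both Salv CKO-labelled samples were above both controls, and so was each of their arrays. Before normalization between arrays the groups overlapped, with mean deposited intensities of 3752 and 6478 in the Salv CKO-labelled samples, against 3945 and 3215 in the controls. The difference was 0.50 ± 0.23 (SE, limma, 95% interval -0.09 to 1.10, adjusted p = 0.998), a fold of 1.42. It ran from 0.36 to 0.65 with 1 sample left out and was 0.28 when arrays were centred on their medians. Igf2, its neighbour and a fetal growth factor, stood at 14.43 and 14.69, against 14.38 and 14.50, and its groups overlapped. The Igf2 difference of 0.12 became -0.07 when arrays were centred and -0.01 without Salv CKO 2.

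Grb10, an adaptor that restrains insulin and growth factor receptors, was level across the samples. It stood at 13.13 and 13.21 in the Salv CKO-labelled samples, against 13.15 and 13.07 in the controls, a difference of 0.06 with a 95% interval (limma) from -0.48 to 0.61. It was -0.15 when arrays were centred on their medians. Phlda2, which limits placental growth, and Ascl2, a placental transcription factor, were dim. Phlda2 levels were 3.45 and 3.17 in the Salv CKO-labelled samples, against 2.55 and 2.71 in the controls, without overlap. The Phlda2 difference of 0.68 ± 0.23 (SE, limma, unadjusted p = 0.0353, adjusted p = 0.998) rested on mean intensities of 11.3 and 8.67, against 5 and 5.33, and was 0.21 with a pseudocount of 16. Kcnq1ot1, the paternally expressed non-coding RNA of the same domain, had mean intensities from 4 to 7.33, and its difference of 0.71 became 0.05 with the median of technical arrays. Ascl2 overlapped between the groups, from 4.16 in Control 2 to 4.46 in Control 1. Meg3, a maternal non-coding RNA, was also dim, at 5.23 and 5.08 in the Salv CKO-labelled samples and 5.31 and 4.68 in the controls.

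Dio3, the last member of the Dlk1 and Meg3 locus, encodes the deiodinase that inactivates thyroid hormone. It was dim and differed by -0.33 ± 0.22 (SE, limma, adjusted p = 0.998), with levels of 4.52 and 4.72 in the Salv CKO-labelled samples, against 4.86 and 5.04. Its sign depended on the scaling, since without normalization between arrays it differed by 0.04.

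**Figure D3:**
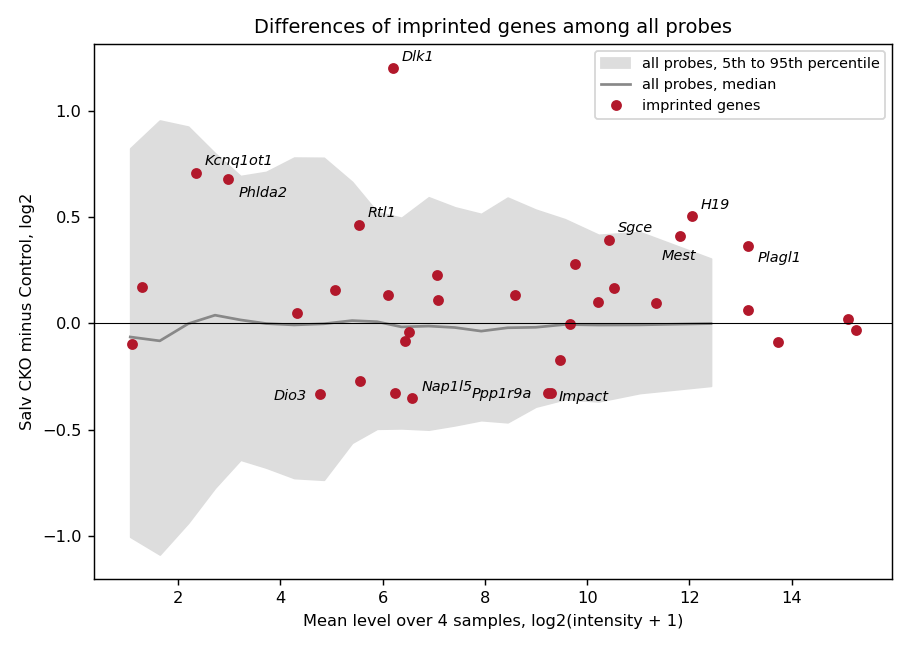
Difference (y axis, log2, Salv CKO-labelled samples minus Control) against the mean level over 4 samples (x axis, log2(intensity + 1)) for the 34 imprinted genes, over the 5th to 95th percentile and the median of all probes in 20 bins of level, drawn up to the middle of the last bin. Dlk1, H19, Mest and Plagl1 lie above the 95th percentile of their bins, and no gene lies below the 5th.

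Set against probes of like brightness, 4 of the 34 members lay outside the 5th to 95th percentile of their bin, all 4 above it. They were Dlk1, H19, Mest and Plagl1. By construction, 5% of all probes in a bin lie above its 95th percentile and 5% below its 5th. In the bin of H19, Mest and Plagl1 the 95th percentile was 0.30, and in that of Dlk1 it was 0.50. The bins come from the same comparison, so this places the members among the probes and is no test.

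Among the neighbours of the growth genes in the same imprinted loci, Sgce, a sarcoglycan of the muscle membrane that is transcribed away from Peg10, had its groups apart. It stood at 10.65 and 10.59 in the Salv CKO-labelled samples, against 10.10 and 10.35 in the controls, a difference of 0.39 ± 0.22 (SE, limma, adjusted p = 0.998). Asb4, a ubiquitin ligase adaptor, stood at 8.55 and 8.74, against 8.56 and 8.47. Ppp1r9a, a neuronal scaffold gene, was highest in Control 1, at 9.85, with 8.98 and 9.26 in the Salv CKO-labelled samples and 9.05 in Control 2. Its difference of -0.33 ± 0.35 (SE, limma, adjusted p = 0.998) was 0.07 without Control 1 and -0.72 without Control 2. Copg2, a vesicle coat gene next to Mest, stood at 10.66 and 10.54, against 10.32 and 10.56. Usp29, next to Peg3, stood at 6.05 and 6.31, against 5.87 and 6.22, and Zim1 had mean intensities of at most 2. The groups of all these but Sgce overlapped.

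Cd81, a tetraspanin, and Nap1l4, a nucleosome assembly gene, flank the Kcnq1ot1 domain. Cd81 stood at 15.09 and 15.14 in the Salv CKO-labelled samples, against 15.05 and 15.14 in the controls. Nap1l4 stood at 13.72 and 13.65, against 13.88 and 13.66. Both overlapped between the groups, with differences of 0.02 (95% interval from -0.52 to 0.57, limma) and -0.09 (-0.66 to 0.49).

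The genes of the Prader-Willi and Angelman locus were level or overlapped. Ndn, a MAGE family growth suppressor, stood at 11.43 and 11.36 in the Salv CKO-labelled samples, against 11.39 and 11.21 in the controls. Magel2, of the same family, stood at 7.28 and 6.99, against 6.84 and 7.21. Mkrn3, a ubiquitin ligase known for its role in the timing of puberty, stood at 6.43 and 6.54, against 6.70 and 6.35, and both of its probes differed by at most 0.05 in size. Ube3a, the ubiquitin ligase of Angelman syndrome, stood at 9.14 and 9.64, against 9.80 and 9.33. No group of these 4 genes was apart. Peg12 gave opposite values on its probes. The brighter one stood at 5.97 and 6.19, against 6.64 and 6.18, and the dim one at 2.64 and 2.70, against 0.58 and 1.54, where the control arrays had intensities from -2 to 2. The dim probe differed by 1.61 ± 0.38 (SE, limma, unadjusted p = 0.00977, adjusted p = 0.998).

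Signalling members overlapped between the groups as well. Gnas, the stimulatory G protein subunit downstream of beta-adrenergic receptors, stood at 9.64 and 9.67 in the Salv CKO-labelled samples, against 9.55 and 9.77 in the controls. Its brightest probe differed by less than 0.01 (95% interval from -0.57 to 0.57, limma). Its transcripts include isoforms of opposite parental origin, and the other 2 Gnas probes differed by 0.15 and -0.53 with wide spread. Rasgrf1, a Ras exchange factor, stood at 6.54 and 6.25, against 6.63 and 6.33. Nnat, a small membrane protein of brain and endocrine tissue, stood at 5.19 and 5.65, against 6.12 and 5.25, and its sign turned to 0.17 without Control 1.

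The transporters and the remaining members were scattered loci. Slc38a4, an amino acid transporter of the placenta and liver, had its highest level in 1 sample, at 10.16 in Salv CKO 2, with 9.64 in Salv CKO 1 and 9.68 and 9.57 in the controls. Without Salv CKO 2 its difference of 0.28 was 0.02. Slc22a3, an organic cation transporter, stood at 7.23 and 7.13, against 7.23 and 6.67. Impact, a regulator of translation under amino acid starvation, was lower in both Salv CKO-labelled samples, at 8.82 and 9.31, against 9.45 and 9.34. The difference of -0.33 ± 0.26 (SE, limma, adjusted p = 0.998) was -0.09 without Salv CKO 1, and in the deposited intensities the groups overlapped, at 394 and 749, against 743 and 589. The other Impact probe, at 7.33 and 8.03 against 7.55 and 7.62, overlapped.

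Nap1l5, a nucleosome assembly gene expressed from the paternal copy, varied most between samples. Its brighter probe gave 6.14 for Salv CKO 1 and 6.67 for Salv CKO 2, against 5.94 for Control 1 and 7.57 for Control 2. The lowest and the highest sample were both controls, and the arrays of a sample agreed within an SD of 0.13. Its difference of -0.35 ± 0.60 (SE, limma, adjusted p = 0.998) was -1.17 without Control 1 and 0.47 without Control 2. The other Nap1l5 probe was dim and ordered the samples differently, with 4.16 and 5.53 in the Salv CKO-labelled samples, against 5.73 and 6.07 in the controls. On that probe the groups did not overlap, and the difference was -1.05 ± 0.51 (SE, limma, adjusted p = 0.998).

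Dcn, the matrix proteoglycan decorin of fibroblasts, was level on its brighter probe, at 15.26 and 15.22 in the Salv CKO-labelled samples, against 15.28 and 15.27 in the controls. The groups were formally apart by 0.01, within the spread between arrays. The other probe stood at 14.58 and 14.60, against 13.90 and 14.80. The summed intensity of the 9 fibroblast markers was 51536 and 56855, against 51754 and 57002, so it too overlapped. In whole hearts, fewer cells of a type and less RNA per cell cannot be told apart.

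**Figure D4:**
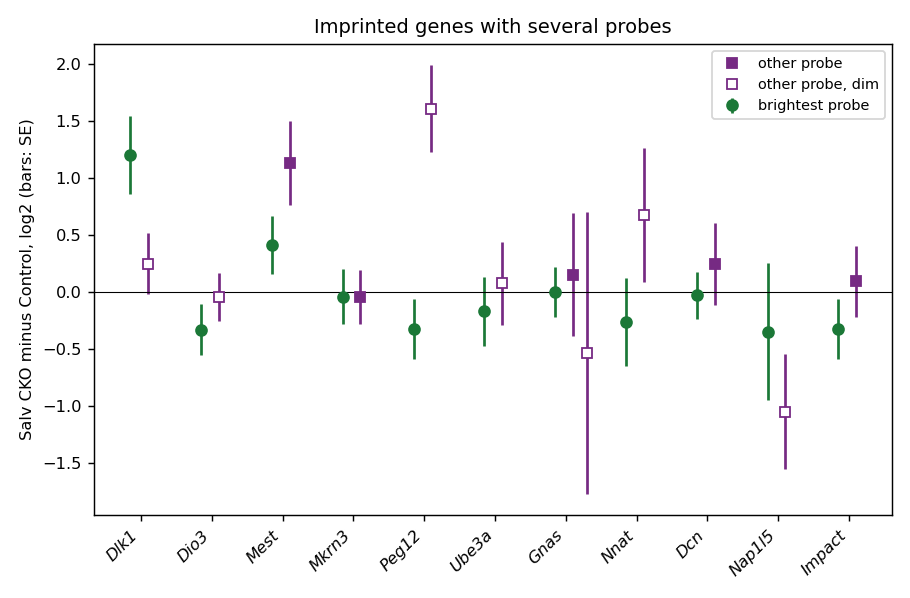
Difference (y axis, log2, Salv CKO-labelled samples minus Control, bars SE from limma) on each probe of the 11 imprinted genes with several probes; circles are the brightest probe and open squares other probes that are dim. The probes of Mest, Mkrn3, Dlk1, Dio3 and Nap1l5 share a sign, while those of Peg12, Nnat, Ube3a, Dcn, Gnas and Impact do not.

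Several probes were named for 11 members. In 5 of them, Dlk1, Dio3, Mest, Mkrn3 and Nap1l5, all probes had the same sign. In the other 6 at least 1 probe had the opposite sign. When the probes of a gene were averaged, Peg12 differed by 0.64 and Nnat by 0.20, against -0.33 and -0.27 on their brightest probes.

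Most brown fat and adipocyte markers differed in the direction opposite to Dlk1 and Mest, which are also genes of growing fat. Of 11 brown fat and adipocyte markers, all measured, 2 had a positive difference, 6 were lower in both Salv CKO-labelled samples than in both controls (background 15.8%), and 1, the dim Lep, was higher in both (background 14.8%). None passed over all probes in limma (smallest adjusted p = 0.998), and 1 had an unadjusted p under 0.05, Cfd, the adipocyte protein adipsin, at 5.51 and 4.22, against 6.77 and 6.57. Their summed intensity was 21303 and 16428 in the Salv CKO-labelled samples, against 27616 and 23086 in the controls. Fabp4, also listed here as an endothelial marker, was the largest part of this sum and 1 of the 6 lower markers. It stood at 13.66 and 13.61, against 13.91 and 13.79. Ucp1, which uncouples respiration in brown fat, had levels of 11.95 and 9.75, against 12.71 and 11.74. Pparg and Elovl3, the latter also 1 of the 6, were near background. Their part in the values of Dlk1 and Mest was not tested.

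By parental origin, as known from the literature and assigned after the values were seen, a positive difference was found in 12 of 19 measured paternally expressed members, whose median was 0.11. Among the 14 maternally expressed members it was 9, with a median of 0.06. Over all probes the median was -0.01. Gnas was left out, since its isoforms differ in origin. All other members not listed as paternally expressed were counted as maternally expressed by default, whether or not they are imprinted in the heart. Origin was not measured in these hearts, so neither count is one of genes shown to use a single copy there. The groups were apart in 8 of the paternally expressed members, or 42.1%, and in 3 of the maternally expressed ones, or 21.4%, against 30.6% of all probes, and the difference between the 2 kinds was not tested.

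The members spread more between samples than between arrays. Over the 34 members the median SD between technical arrays was 0.11 and that between same-group samples was 0.22, against 0.19 and 0.27 over all probes. Control 1 was the lowest sample for 14 of the 34 members and the highest for 12. Over all probes Control 1 was the lowest in 28.5% and the highest in 35.8%.

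The wider class of imprinted genes gave no calls either. Of 46 further imprinted genes on a list, 41 were measured, 21 had a positive difference and the median was 0.00. None passed over all probes in limma, and 1 had an unadjusted p under 0.05. That gene was Tbc1d12, which was dim, and its difference of -1.19 was -0.19 with a pseudocount of 16. The groups did not overlap in 12 of the 41, or 29.3%, against 30.6% of all probes. Ddc, which makes dopamine and serotonin and is imprinted in the embryonic heart, stood at 11.02 and 10.90 in the Salv CKO-labelled samples, against 10.63 and 9.82 in the controls. The Ddc difference of 0.73 ± 0.34 (SE, limma, adjusted p = 0.998) was 0.33 without Control 2. Atp10a, a phospholipid flippase of the Angelman locus, stood at 5.57 and 5.88, against 6.47 and 6.11. Cmah, a sialic acid hydroxylase, stood at 4.68 and 5.97, against 6.01 and 6.32, and without Salv CKO 1 its difference of -0.84 was -0.19. Among the growth regulators on this list, Igf2r, which clears Igf2, stood at 13.25 and 13.42, against 13.43 and 13.16. Cdkn1c, the imprinted inhibitor of cyclin-dependent kinases, stood at 11.59 and 11.30, against 11.41 and 11.57. Both overlapped between the groups.

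Of the listed genes that act on DNA methylation, chromatin and imprints, 2 of 19, or 10.5%, had groups apart, against 30.6% of all probes. The list is not limited to genes that maintain imprints, since it also holds Dnmt3a, Dnmt3l and the Tet genes. All 19 were measured, 8 had a positive difference, and none had an unadjusted p under 0.05 in limma. Dnmt1, the maintenance DNA methyltransferase, stood at 7.02 and 7.34 in the Salv CKO-labelled samples, against 8.01 and 7.18 in the controls, and its difference of -0.42 was 0.002 without Control 1. Zfp57, Dnmt3l and Dppa3, which act in the germ line and early embryo, were dim.

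Of 16 listed genes tied to growth before and after birth, 15 were measured and none had an unadjusted p under 0.05 in limma. In 8 the difference was positive, with a median of 0.02. All samples were from postnatal day 8, so a decline after birth was not measured. Igf1, the postnatal growth factor, stood at 9.52 and 9.52 in the Salv CKO-labelled samples, against 9.36 and 9.02 in the controls, a difference of 0.33 ± 0.23 (SE, limma, adjusted p = 0.998). Tgfbr3, a co-receptor of TGF-beta, stood at 10.58 and 11.02, against 11.09 and 11.19. Igf2bp2, which binds Igf2 RNA, stood at 6.18 and 6.69, against 7.20 and 6.55, and without Control 1 its difference of -0.44 was -0.11. Lin28b, a fetal RNA-binding protein, was dim.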

How the data were processed

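Per the labels' protocols, amplified whole-heart RNA of 4 samples was Cy5-labelled through aminoallyl groups and measured on 12 one-colour arrays. The deposited values are intensities, some of them negative, as after background subtraction. How the authors scanned, corrected and scaled them is not stated by the labels. Arrays (medians from 58 to 88) were quantile normalized, because their distributions differed, negative ones were raised to the smallest positive one (0.0833), and log2(value + 1) was averaged over the 3 arrays of a sample. Two-sided limma tests (lmFit and eBayes, version 3.58.1, R 4.3.3; 2 residual and 2.60 prior degrees of freedom) compared 2 samples with 2, with Benjamini-Hochberg adjustment over 26423 probes. The procedure was tested on simulated data. The number of samples limits the precision.

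Of the probes, 20377 had 1 symbol and 6046 none; 18213 matched the RefSeq table of GRCm38.p6 by symbol, 2126 by synonym and 38 not at all. Gene positions are not printed, since no build is stated for the array. The members and lists were chosen with earlier results of these data known. Every member is accounted for, bright ones by sample. From the lists of further imprinted genes, of methylation and imprint genes and of growth genes, the up to 4 genes with the smallest p were named. Igf2, Igf2r, Cdkn1c and Sav1 were named as well. The fat markers named were chosen after their values were seen. Lists are described by counts, with no set test. Alternatives covered the fit of 12 arrays, pairing, the median of technical arrays, scaling, dim probes, the pseudocount, the variance model, single samples and the mean over probes. Figures were drawn with matplotlib 3.10.9.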

Additional observations from a re-analysis of the deposited data

How the results depend on the processing

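No member and none of the further imprinted genes passed in any setting tried (smallest adjusted p of a member, 0.138, for H19 in the fit of 12 arrays with samples as random blocks). The limma count over all probes, 0 of 26423, became 61 in that fit, 2 with arrays centred on their medians and 14 without normalization between arrays, a setting whose all-probe median was 0.11. The 1048 probes with an unadjusted p under 0.05 became 2202 in the fit of 12 arrays, 599 and 327 without the dimmest 25% and 50% of probes (fewer probes tested), and 638 to 2824 with 1 sample left out, lowest without Salv CKO 1 and highest without Control 2. Members with an unadjusted p under 0.05, 2 in the report, numbered 5 in the fit of 12 arrays (H19, Dlk1, Sgce, Mest and Plagl1), 4 with the mean over probes, 3 without normalization, 3 with the trended variance, 1 with the median of technical arrays, with centring, or without the dimmest 25%, and 0 to 2 with 1 sample left out (0 without either sample labelled Salv CKO). Further imprinted genes, 1 in the report, numbered 5 in the fit of 12 arrays, 2 without normalization or with the trended variance, 0 with the median of technical arrays, a pseudocount of 16 or either filter, and 0 to 4 with 1 sample left out. The groups were apart in 7 of the 24 members left without the dimmest 50%, and in 19 to 29 of 34 with 1 sample left out, where 55.3% to 76.1% of all probes are apart by construction. The replicate numbers do not show that samples are paired: deviations of same-numbered samples correlated at r = -0.25 over probes, and with the replicate block 1 member (Dlk1) and 743 probes had an unadjusted p under 0.05, with no other call changed. The crossed pairing, chosen after seeing the data, gave 3 members and 1545 probes, and none passed. Of the 34 members, 23 changed sign in at least 1 setting. Centring turned 6 of them (Cd81, Copg2, Grb10, Ndn, Peg10 and Peg3; Cd81 to -0.17 and Peg10 to -0.21), the mean over probes 3, the median of technical arrays 3 and no normalization 5. Leaving out a sample turned 10 without Control 1, 7 without Control 2, 7 without Salv CKO 1 (Peg3 to -0.16) and 2 without Salv CKO 2. Centring also reversed the median difference of the members (-0.068; 0.050 to 0.12 with 1 sample left out). Counting only turns by over 1 SE of the reported difference, and the further genes too, centring reversed Grb10 (-0.15) and Igf2r (-0.19). The median of technical arrays reversed Ascl2 (-0.21), no normalization Dio3 (0.035), and the mean over probes Nnat (0.20) and Peg12 (0.64). By the same measure, leaving out Control 1 reversed Nnat, Ppp1r9a and Dnmt1, leaving out Control 2 reversed Nap1l5, Zim1, Meg3 and Slc22a3, and leaving out Salv CKO 1 reversed Peg10 and Dppa3. With 1 sample left out, Nnat ran from -0.71 to 0.17, Ppp1r9a from -0.72 to 0.072, Dnmt1 from -0.83 to 0.0017, Nap1l5 from -1.17 to 0.47, Zim1 from -0.49 to 0.30, Meg3 from -0.16 to 0.48, Slc22a3 from -0.049 to 0.51, Peg10 from -0.26 to 0.60 and Dppa3 from -1.31 to 0.092. The cause was not tested. In 11 of the 34 members the sign was kept in every setting: Asb4, Dlk1, H19, Impact, Kcnq1ot1, Mest, Phlda2, Plagl1, Rtl1, Sgce and Slc38a4. Settings that change only the blocks, the variance model or the probes tested leave a difference as it is and cannot turn its sign. Where the groups do not overlap, leaving out 1 sample cannot turn it either. Of these 11 only Asb4 and Slc38a4 overlapped, so a kept sign was largely fixed in advance. Signal over background limits the 8 dim members.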
